A study of Felis catus with 25 samples.

Results

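Genes of fatty acid synthesis and desaturation were followed in fibroblasts of the cornea, grown in culture from the domestic cat (Felis catus). The 6 genes, out of 13949 gene symbols measured, were chosen by name and were ACLY, ACSS2, ACACA, FASN, ELOVL6 and FADS2. All 6 were found, and all 6 passed the filter on counts that left 10699 genes for testing. Cells build fatty acids in the cytosol from acetyl-CoA, which is released from citrate by ACLY or made from acetate by ACSS2. ACACA turns acetyl-CoA into malonyl-CoA, and FASN joins these units into palmitate. ELOVL6 lengthens palmitate in the endoplasmic reticulum, and FADS2 puts double bonds into polyunsaturated fatty acids. Transcription factors of the SREBP family, encoded by SREBF1 and SREBF2, are known in mammals to drive genes of this pathway and of cholesterol synthesis.

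Polyadenylated RNA was sequenced from 25 libraries, 5 in each of 5 groups, and the labels state no genetic change in any group. The UK group was exposed to transforming growth factor beta 1 (TGFb1) until day 2 and then, with TGFb1 removed, to 30 uM UK-5099 until day 5. UK-5099 inhibits the mitochondrial pyruvate carrier. The TrogGW group received 7.5 uM troglitazone together with 10 uM GW9662 over the same days after the same TGFb1 exposure. The Trog group received 7.5 uM troglitazone without GW9662, over the same days after the same TGFb1 exposure. Troglitazone is a ligand of the nuclear receptor PPAR-gamma, and GW9662 is an antagonist of that receptor. The TGFb group was harvested at day 2 after exposure to TGFb1 at 1 ng/ml, which turns fibroblasts into contractile myofibroblasts. The FB group was harvested at day 0, untreated and quiescent per the labels. Neither drug-free cells of day 5 nor cells of day 2 without TGFb1 were analysed here. A drug therefore cannot be told apart from TGFb1 removal and time, nor TGFb1 from the days in culture. The labels number 5 replicates in a group but do not say whether each had its own culture or donor. The p-values therefore speak only for the spread seen among these libraries.

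Each library held between 14781627 and 25210639 counts. UK replicate 5 stood apart: across genes, its correlation in log2 CPM (counts scaled to a common total) with its 4 fellow UK libraries was 0.852 to 0.868, while all remaining within-group pairs reached 0.988 or more. Results of the 6 genes that rest on UK are therefore also given without this library. For 5 of the gene lists, counts without it are given in UK against TGFb. Genes named from the lists are given with all 25 libraries only. Stromal fibroblast markers such as COL1A1 and LUM were present in every group, but their sum moved with the groups. The 12 of 13 fibroblast markers that passed the filter summed with the remaining one to 94516 to 142615 CPM in UK, 2591 to 5325 in TrogGW, 6133 to 8095 in Trog, 113022 to 136203 in TGFb and 78364 to 94655 in FB. This sum, which was mostly COL1A1 and COL1A2 in UK, TGFb and FB, was lowest in both troglitazone groups. Some markers had another order: LUM averaged 3669 ± 1706 CPM in UK (2907 ± 102 without replicate 5), 64.8 ± 30.9 in TrogGW, 243 ± 54.1 in Trog, 859 ± 69.3 in TGFb and 189 ± 9.02 in FB, and DCN, PDGFRB and FAP were also higher on average in Trog than in FB. The rest of the list was lower on average in Trog than in FB. These were PDGFRA, FBN1, S100A4, THY1, COL1A1, COL1A2, COL3A1, COL5A1 and COL6A1. FBN1 averaged 1561 CPM in Trog and 4346 in FB, and S100A4 28.5 and 216. The corneal epithelium markers KRT3 and KRT12 and the leukocyte marker PTPRC had no count in any library. Of the other marker lists, 2 of 5 genes of corneal epithelium, 9 of 10 of corneal endothelium, 2 of 8 of melanocytes and Schwann cells, 4 of 13 of immune cells, 7 of 13 of vascular endothelium, 5 of 8 of adipocytes and 3 of 5 of sebaceous glands passed the filter. The adipocyte list summed to 16.9 to 19.7 CPM in UK, 14.7 to 19.9 in TrogGW, 44.2 to 59.2 in Trog, 7.09 to 8.43 in TGFb and 7.65 to 10.6 in FB, and its hormone gene ADIPOQ had at most 1 count per library. Most of the Trog sum was FABP4, at 38.2 ± 5.60 CPM there and 0 in TGFb and FB. LIPE averaged 10.8 CPM in Trog and 7.47 in FB, CFD 1.19 and 0.0429, and LEP 0.232 and 0.199. PLIN1 went the other way, at 0.467 CPM in Trog and 0.720 in FB. The corneal endothelium list summed to 923 to 2217 CPM in UK (1792 to 2217 without replicate 5), 1438 to 1557 in TrogGW, 1446 to 1595 in Trog, 2779 to 3118 in TGFb and 2107 to 2318 in FB, with its marker ZP4 at 0 throughout. The sebaceous list summed to 308 to 327 CPM in UK without replicate 5, 104 to 129.5 in TrogGW, 147 to 163 in Trog, 179 to 207 in TGFb and 131 to 140.4 in FB, and to 1059.6 CPM in UK replicate 5. Most of it was MGST1, while SOAT1 of the same list averaged 24.9 ± 2.45 CPM in UK and 29.1 ± 2.39 in TGFb. The part of these sums in the results below was not tested. In bulk RNA, fewer cells of a type and less RNA per cell cannot be told apart.

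Levels below are CPM on scaled library totals, listed by replicate 1 to 5 within a group. Changes are log2 fold changes ± SE of the group named first over the group named second. A gene is said to rise or fall where edgeR's quasi-likelihood test gave an adjusted p under 0.05 after Benjamini-Hochberg (BH) adjustment over all 10699 genes tested. Levels are not divided by gene length, so they are compared between groups and not between genes. Group ranges without overlap were common. Such genes were 54.2% of all tested genes between TrogGW and Trog, 71.5% between Trog and FB and 75.7% between TrogGW and FB. For UK with Trog, TrogGW or FB, and for TrogGW with TGFb, no such share is given. Separation in those pairs therefore has no background beside it.

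ACLY, ATP citrate lyase, splits citrate exported from mitochondria into cytosolic acetyl-CoA. Its levels were 943, 856, 973, 925 and 627 CPM in UK, 516, 566, 606, 483 and 533 in TrogGW and 469.9, 481, 479, 509.5 and 457 in Trog. They were 1075, 1082, 1071, 1031 and 1043 CPM in TGFb and 505, 518, 516, 539 and 561 in FB. Every TGFb library lay above every library of the other groups, the UK libraries came next, and TrogGW, Trog and FB overlapped. As a background, 25.8% of all tested genes were higher in every TGFb library than in every FB library. Lower in every UK library than in every TGFb library were 18.7%. The group means ± SD (n = 5) were 865 ± 139.6 CPM in UK, 541 ± 47.2 in TrogGW, 479 ± 19.3 in Trog, 1060.3 ± 22.2 in TGFb and 528 ± 22.1 in FB. In the order TGFb, UK, TrogGW, FB and Trog, TGFb differed from UK and UK from TrogGW, while TrogGW with FB (0.035 ± 0.0906, edgeR BH-adjusted p = 0.741) and Trog with FB (-0.14 ± 0.0907, edgeR BH-adjusted p = 0.184) did not pass the test. With library totals alone, ACLY rose by 0.51 in TrogGW against FB (edgeR BH-adjusted p = 0.00032).

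ACSS2, acetyl-CoA synthetase 2, makes acetyl-CoA from acetate in the cytosol and nucleus. Its levels were 304, 288, 321, 299 and 226 CPM in UK, 85.1, 72.1, 64.2, 64.1 and 73.8 in TrogGW and 151, 141, 144, 151 and 132 in Trog. They were 351, 346, 325, 385 and 339 CPM in TGFb and 218, 208, 223, 211 and 222 in FB. None of the 5 ranges overlapped another. Separation of that kind held for 54.2% of all tested genes between TrogGW and Trog, and for 71.5% between Trog and FB. UK lay wholly below TGFb in 18.7%, Trog lay wholly below TGFb in 34.3% and TGFb lay wholly above FB in 25.8%. TrogGW and FB were apart in 75.7%. UK and FB were split narrowly, with UK replicate 5 at 225.7 CPM and the highest FB library at 222.5. The means were 288 ± 36.6 CPM in UK, 71.8 ± 8.65 in TrogGW, 144 ± 8.05 in Trog, 349 ± 22.3 in TGFb and 216 ± 6.27 in FB. The order was TGFb, UK, FB, Trog and TrogGW, and each neighbouring pair differed by the test.

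ACACA, acetyl-CoA carboxylase 1, makes malonyl-CoA and is a main point of control of the pathway. Its levels were 342, 316, 373, 375 and 58.6 CPM in UK, 156, 144, 135, 128 and 140.0 in TrogGW and 155, 135, 149, 156 and 138 in Trog. They were 257, 251, 239.6, 228 and 248 CPM in TGFb and 96.6, 101, 95.3, 115 and 107 in FB. UK held both the highest libraries and, in replicate 5, the lowest of all 25. The means were 293 ± 133 CPM in UK, 141 ± 10.5 in TrogGW, 146 ± 9.75 in Trog, 245 ± 11.2 in TGFb and 103 ± 8.07 in FB. Without UK replicate 5 the UK mean was 351 ± 28.1 CPM (n = 4). In the order UK, TGFb, Trog, TrogGW and FB, only TGFb and Trog differed as neighbours in the fit of 25 libraries. Without UK replicate 5, the test also separated UK from TGFb and TrogGW from FB.

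FASN, fatty acid synthase, carries out all steps of palmitate assembly on 1 polypeptide. Its levels were 1222, 1204, 1445, 1751 and 485 CPM in UK, 258, 267, 268, 213 and 284 in TrogGW and 223, 292, 261, 273 and 229 in Trog. They were 1095, 946, 948, 806 and 945 CPM in TGFb and 248, 212, 309, 257 and 313 in FB. The UK libraries other than replicate 5 lay above all TGFb libraries, as in 30% of all tested genes, and TrogGW, Trog and FB overlapped throughout. The means were 1221 ± 467 CPM in UK, 258 ± 26.8 in TrogGW, 256 ± 29.4 in Trog, 948 ± 102 in TGFb and 268 ± 42.8 in FB. Without replicate 5 the UK mean was 1406 ± 255 CPM (n = 4). In the order UK, TGFb, FB, TrogGW and Trog, only TGFb and FB differed as neighbours with all libraries, and UK and TGFb also did without UK replicate 5.

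ELOVL6 elongates saturated and monounsaturated chains of palmitate length. It was read at 61 to 551 counts per library, the fewest of the 6 genes. Its levels were 11.1, 8.58, 12.1, 8.80 and 5.58 CPM in UK, 9.54, 8.47, 6.90, 7.05 and 7.06 in TrogGW and 4.55, 3.85, 3.25, 3.17 and 4.01 in Trog. They were 27.2, 24.2, 25.3, 23.7 and 22.1 CPM in TGFb and 17.7, 22.8, 22.5, 23.6 and 21.6 in FB. All libraries of the 3 drug groups lay below all TGFb and FB libraries, and Trog lay lowest without overlap. Among all tested genes, 34.3% were lower in every Trog library than in every TGFb library. UK lay wholly below TGFb in 18.7%. TrogGW and Trog did not overlap in 54.2%, Trog and FB in 71.5% and TrogGW and FB in 75.7%. The means were 9.23 ± 2.53 CPM in UK, 7.80 ± 1.16 in TrogGW, 3.76 ± 0.572 in Trog, 24.5 ± 1.89 in TGFb and 21.6 ± 2.32 in FB. In the order TGFb, FB, UK, TrogGW and Trog, the pairs TGFb with FB and UK with TrogGW did not pass the test, and UK with TrogGW did without UK replicate 5.

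FADS2, the delta-6 desaturase, starts the conversion of linoleic and alpha-linolenic acid into longer polyunsaturated fatty acids. Its levels were 289, 238, 276, 268 and 107 CPM in UK, 25.2, 26.0, 19.97, 18.8 and 21.7 in TrogGW and 42.7, 51.0, 45.5, 47.9 and 43.0 in Trog. They were 282, 253, 259, 254 and 257 CPM in TGFb and 32.2, 39.1, 43.1, 40.7 and 42.6 in FB. UK and TGFb stood above the other 3 groups, and TrogGW was lowest without overlap. Over all tested genes, TrogGW did not overlap Trog in 54.2% and did not overlap FB in 75.7%. TGFb lay wholly above FB in 25.8%, and Trog lay wholly below TGFb in 34.3%. The means were 236 ± 74.3 CPM in UK, 22.3 ± 3.18 in TrogGW, 46.0 ± 3.51 in Trog, 261 ± 11.8 in TGFb and 39.6 ± 4.39 in FB. Without replicate 5 the UK mean was 268 ± 21.6 CPM (n = 4). In the order TGFb, UK, Trog, FB and TrogGW, the pairs TGFb with UK and Trog with FB did not pass the test, and Trog with FB did without UK replicate 5. The submitters' counting may share reads between FADS2 and its paralogs FADS1 and FADS3. In the RefSeq gene table, ACACA overlaps 3 other genes and ELOVL6 and ACSS2 overlap 1 each, while FADS2, FASN and ACLY overlap none. The strand setting was not given in the sources used here, so overlapping and antisense genes could add reads to ACACA, ELOVL6 and ACSS2.

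**Figure D1:**
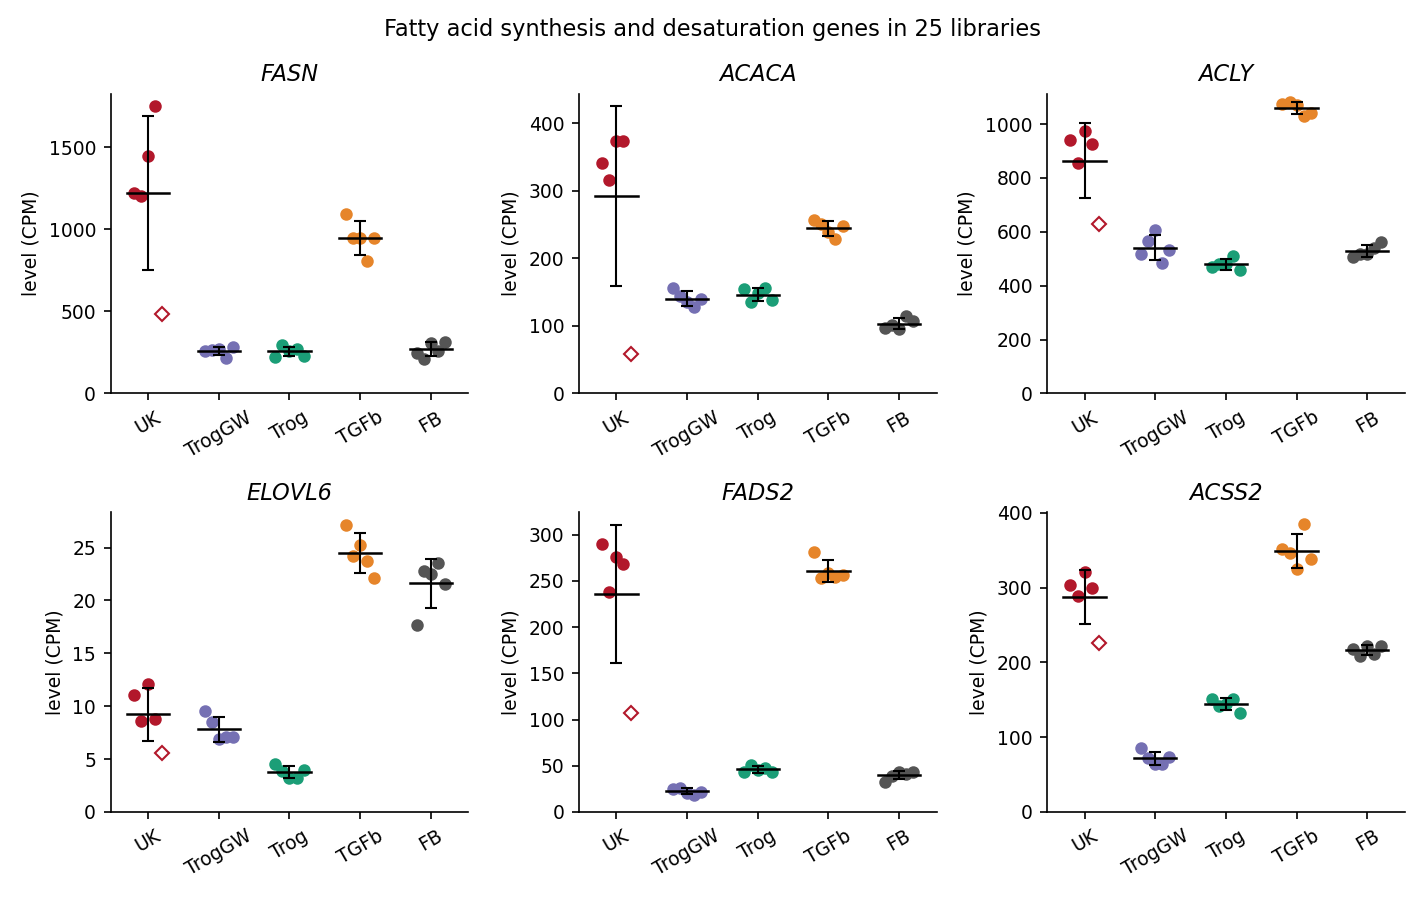
Level in CPM (linear axis from 0) of each gene in the 5 groups, with 1 point per library, the mean as a horizontal line and the SD as a bar (n = 5). The open diamond is UK replicate 5, which is the lowest UK library in all 6 panels, and ELOVL6 is lowest in Trog while FADS2 and ACSS2 are lowest in TrogGW.

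The comparison of TGFb with FB showed 5 of the 6 genes higher after 2 days with TGFb1. FADS2 rose most, by 2.72 ± 0.180 or 6.59-fold, and FASN rose by 1.82 ± 0.208, a 3.54-fold difference (edgeR BH-adjusted p = 1.99e-11 for FADS2 and 1.72e-07 for FASN). ACACA rose by 1.25 ± 0.266, ACLY by 1.01 ± 0.0915 and ACSS2 by 0.69 ± 0.0882 (edgeR BH-adjusted p = 0.00055, 4.35e-09 and 9.28e-07). ELOVL6 did not pass the test, at 0.18 ± 0.148 with a 95% interval of -0.11 to 0.47 (edgeR BH-adjusted p = 0.370). Its value was -0.20 with library totals alone, and it rose by 0.17 in a fit of only these 2 groups (edgeR BH-adjusted p = 0.0436). Among all tested genes, 38.2% changed in this comparison and 18% rose. The 5 genes that rose were higher in every TGFb library than in every FB library, as 25.8% of all tested genes were. The median over the 6 genes was 1.13, against -0.020 over all genes tested. UK replicate 5 is in neither group here but enters the filter, the scaling and the estimate of spread. Leaving it out raised the changed share of all genes to 66% and left the calls of the 6 genes as they were.

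After TGFb1 removal and 3 days with troglitazone, all 6 genes were lower than in TGFb. ELOVL6 fell by 2.701 ± 0.161, a 6.50-fold difference, and FADS2 by 2.50 ± 0.178, a 5.67-fold difference (edgeR BH-adjusted p = 6.44e-13 for ELOVL6 and 1.62e-11 for FADS2). FASN fell by 1.89 ± 0.209, ACSS2 by 1.28 ± 0.0892 and ACLY by 1.15 ± 0.0918 (edgeR BH-adjusted p = 3.2e-08, 1.11e-11 and 1.33e-10). ACACA fell least, by 0.74 ± 0.263 (edgeR BH-adjusted p = 0.0174). The background was high, since 62.6% of all tested genes changed between these groups and 29.7% fell. All 6 genes were lower in every Trog library than in every TGFb library, as 34.3% of all tested genes were. The median over the 6 genes was -1.58, against 0.044 over all genes. Scaling by library totals alone moved the median of all genes up by 0.68 and left ACACA at -0.056 (edgeR BH-adjusted p = 0.860), with the other 5 still lower.

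With GW9662 added to troglitazone, all 6 genes were likewise lower than in TGFb. FADS2 fell by 3.55 ± 0.187, an 11.7-fold difference, and ACSS2 by 2.28 ± 0.0921, a 4.86-fold difference (edgeR BH-adjusted p = 4.61e-14 for FADS2 and 3.62e-16 for ACSS2). FASN fell by 1.88 ± 0.209, ELOVL6 by 1.65 ± 0.153 and ACLY by 0.97 ± 0.0915 (edgeR BH-adjusted p = 2.75e-08, 1.25e-09 and 1.68e-09). ACACA fell by 0.80 ± 0.263 (edgeR BH-adjusted p = 0.00972). Of all tested genes 69.4% changed and 31.3% fell. The median over the 6 genes was -1.76, against 0.092 over all genes. Scaling by library totals alone moved the median of all genes up by 0.85, turned ACACA to 0.051 (edgeR BH-adjusted p = 0.871) and left ACLY at -0.12 (edgeR BH-adjusted p = 0.335).

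The direct comparison of TrogGW with Trog, which differ only by GW9662, split the 6 genes. ELOVL6 was 2.07-fold higher with GW9662, a rise of 1.05 ± 0.157 (edgeR BH-adjusted p = 7e-06). FADS2 fell by 1.04 ± 0.172 and ACSS2 by 1.002 ± 0.0888, 2.06-fold and 2.002-fold lower with GW9662 (edgeR BH-adjusted p = 2.61e-05 and 2.99e-09). In each of these 3 genes the TrogGW and Trog libraries did not overlap, as was the case for 54.2% of all tested genes. The central enzymes did not pass the test, with FASN at 0.014 ± 0.202 (95% interval -0.38 to 0.41) and ACACA at -0.059 ± 0.262 (-0.57 to 0.45). ACLY stood at 0.17 ± 0.0907 (-0.004 to 0.35, edgeR BH-adjusted p = 0.129). Without UK replicate 5, ACLY rose by 0.17 ± 0.0562 (edgeR BH-adjusted p = 0.00833), as it also did with library totals alone and in a fit of only these 2 groups (edgeR BH-adjusted p = 0.0166 and 0.0240). The interval of FASN without that library was -0.20 to 0.22. In all, of the genes tested, 43.2% changed, or 71.6% without UK replicate 5, so 3 of 6 lies near the background. The median over the 6 genes was -0.023, against 0.010 over all genes.

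After TGFb1 removal and 3 days with UK-5099, the 6 genes did not move together against TGFb. ELOVL6 fell by 1.40 ± 0.153, a 2.64-fold difference (edgeR BH-adjusted p = 5.23e-08). ACLY fell by 0.29 ± 0.0907 and ACSS2 by 0.28 ± 0.0879, both modest in size (edgeR BH-adjusted p = 0.00939 and 0.0106). All 3 were lower in every UK library than in every TGFb library, as 18.7% of all tested genes were. FASN at 0.37 ± 0.202, ACACA at 0.26 ± 0.262 and FADS2 at -0.15 ± 0.168 did not pass the test (edgeR BH-adjusted p = 0.138, 0.430 and 0.494). Of the 10699 genes tested, 50.5% changed and 22.5% fell, so the 3 calls among 6 genes are close to the background. The median over the 6 genes was -0.21, against 0.085 over all genes.

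UK replicate 5 decided the calls of FASN and ACACA in this comparison. Without it FASN rose by 0.57 ± 0.112 and ACACA by 0.52 ± 0.0645, each higher in all 4 UK libraries than in all 5 TGFb libraries, as 30% of all tested genes were (edgeR BH-adjusted p = 4.68e-05 and 2.47e-08). ELOVL6 at -1.28 ± 0.113, ACLY at -0.20 ± 0.0597 and ACSS2 at -0.20 ± 0.0651 then remained lower (edgeR BH-adjusted p = 3.03e-11, 0.00437 and 0.00684). FADS2 turned to 0.039 ± 0.0777 and did not pass the test (edgeR BH-adjusted p = 0.669, 95% interval -0.11 to 0.19). Across all tested genes 70.9% changed without this library. The small falls of ACLY and ACSS2 lost the call in a fit of only these 2 groups, while their values were -0.28 and -0.27 (edgeR BH-adjusted p = 0.123 and 0.101). Neither was called with library totals alone, where they were -0.053 and -0.042. FASN rose by 0.62 under that scaling with all 25 libraries (edgeR BH-adjusted p = 0.0184).

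Between the day-5 groups, all 6 genes were higher in UK than in Trog. FADS2 rose by 2.36 ± 0.177 and FASN by 2.26 ± 0.211, 5.12-fold and 4.78-fold higher in UK (edgeR BH-adjusted p = 6.28e-11 and 2.75e-09). ELOVL6 rose by 1.30 ± 0.158, ACLY by 0.85 ± 0.0913 and ACSS2 by 1.000 ± 0.0887 (edgeR BH-adjusted p = 1.87e-07, 2.61e-08 and 1.08e-09). ACACA rose by 1.000 ± 0.264 (edgeR BH-adjusted p = 0.00229), but UK replicate 5 lay below every Trog library, and the call was lost in a fit of only the 2 groups (value 1.01, edgeR BH-adjusted p = 0.0642) and with library totals alone (edgeR BH-adjusted p = 0.0713). Without that library ACACA rose by 1.26 ± 0.0647 (edgeR BH-adjusted p = 4.84e-17), and FADS2 rose by 2.54 ± 0.0815, FASN by 2.46 ± 0.116, ELOVL6 by 1.43 ± 0.129, ACLY by 0.95 ± 0.0594 and ACSS2 by 1.08 ± 0.0651. Of all tested genes 61.1% changed (75.1% without UK replicate 5) and 32.9% rose, and the medians were 1.15 over the 6 genes and 0.041 over all genes. The drugs were given at different doses, 30 uM UK-5099 and 7.5 uM troglitazone.

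UK also exceeded TrogGW in 5 of the 6 genes. FADS2 rose by 3.40 ± 0.186, 10.6-fold, FASN by 2.24 ± 0.211 and ACSS2 by 2.001 ± 0.0912 (edgeR BH-adjusted p = 1.22e-13, 2.09e-09 and 4.49e-15). ACACA rose by 1.06 ± 0.264 and ACLY by 0.68 ± 0.0910 (edgeR BH-adjusted p = 0.00117 and 6.46e-07). Both lost the call with library totals alone, at 0.48 and 0.066 (edgeR BH-adjusted p = 0.125 and 0.601). ELOVL6 stood at 0.25 ± 0.152 (edgeR BH-adjusted p = 0.149) and, without UK replicate 5, rose by 0.38 ± 0.118 (edgeR BH-adjusted p = 0.00444), but library totals alone put it at -0.35. Without that library the rises of the other 5 were 3.59 ± 0.0858 for FADS2, 2.45 ± 0.116 for FASN, 2.08 ± 0.0667 for ACSS2, 1.33 ± 0.0647 for ACACA and 0.78 ± 0.0593 for ACLY. In all, of the genes tested, 68% changed (81.5% without UK replicate 5) and 32.9% rose. The medians were 1.53 over the 6 genes and -0.032 over all genes.

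Set against FB, the untreated cells of day 0, the drug groups differed in where each gene ended. In UK, 5 genes were higher than in FB, led by FADS2 (2.58 ± 0.179) and FASN (2.19 ± 0.211), while ELOVL6 fell by 1.22 ± 0.152 (edgeR BH-adjusted p = 1.4e-11, 4.35e-09 and 2.8e-07). ACACA rose by 1.51 ± 0.267, ACLY by 0.71 ± 0.0911 and ACSS2 by 0.41 ± 0.0880 (edgeR BH-adjusted p = 3.87e-05, 4.22e-07 and 0.000343). In all, of the genes tested, 56.4% changed between UK and FB, or 77.8% without UK replicate 5. Without it, UK over FB was 2.76 ± 0.0830 for FADS2, 2.39 ± 0.115 for FASN, 1.77 ± 0.0657 for ACACA, 0.81 ± 0.0594 for ACLY, 0.49 ± 0.0649 for ACSS2 and -1.10 ± 0.113 for ELOVL6, each with the call it had before. In TrogGW, ACSS2 fell by 1.59 ± 0.0901, ELOVL6 by 1.47 ± 0.152 and FADS2 by 0.82 ± 0.172 relative to FB (edgeR BH-adjusted p = 2.2e-13, 8.92e-09 and 0.000177), against a background of 69.7% of all genes changed (85.8% without UK replicate 5). The fall of FADS2 was -0.35 with library totals alone (edgeR BH-adjusted p = 0.102). In Trog, ELOVL6 fell by 2.52 ± 0.160 and ACSS2 by 0.59 ± 0.0882 (edgeR BH-adjusted p = 2.12e-12 and 3.44e-06), against a background of 63.9% (81.4% without UK replicate 5).

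FASN did not pass the test against FB in either troglitazone group, at -0.052 ± 0.202 in TrogGW (95% interval -0.45 to 0.34) and -0.066 ± 0.202 in Trog (-0.46 to 0.33). ACACA was higher in every TrogGW and every Trog library than in every FB library, at 0.45 ± 0.262 and 0.51 ± 0.263, as were either higher or lower 75.7% and 71.5% of all tested genes. It did not pass the test with 25 libraries (edgeR BH-adjusted p = 0.130 and 0.0940). It passed without UK replicate 5 (edgeR BH-adjusted p = 1.28e-07 and 1.23e-08), in fits of only the 2 groups and with library totals alone. Without that library FADS2 was also higher in Trog than in FB (0.22 ± 0.0797, edgeR BH-adjusted p = 0.0140) and ACLY lower (-0.14 ± 0.0563, edgeR BH-adjusted p = 0.0247). Library totals alone turned ACLY to 0.17 and FASN to 0.25 in Trog over FB, and FASN to 0.43 in TrogGW over FB. All these comparisons share the FB libraries, and those against TGFb share the TGFb libraries.

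**Figure D2:**
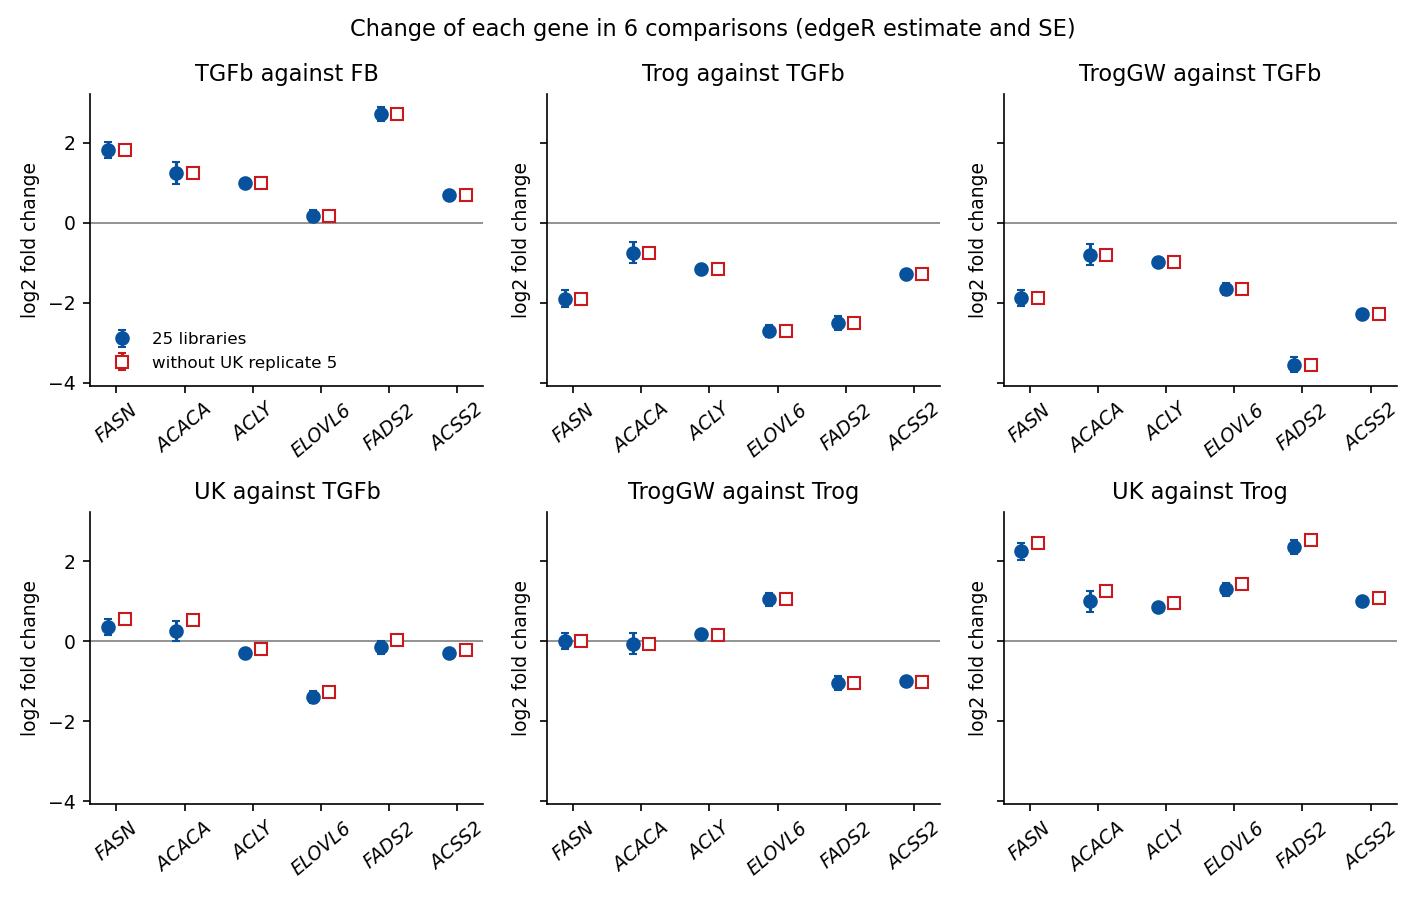
Log2 fold change (vertical axis, bars are SE) of the 6 genes in 6 comparisons, with filled circles for the fit of 25 libraries and open squares without UK replicate 5. All 6 genes lie below 0 in both troglitazone groups against TGFb with the scaling shown, although ACACA in TrogGW against TGFb is at 0.051 with library totals alone, and in TrogGW against Trog ELOVL6 lies at 1.05, FADS2 at -1.04 and ACSS2 at -1.002.

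The count of each gene was also divided by that of FASN in the same library, which removes the scaling between libraries from the comparison. The log2 ratios were compared between groups with a two-sided exact permutation test, BH-adjusted over 50 ratios, for which the smallest possible p of 5 against 5 libraries is 0.00794. The ratio differed in 40 of 50 cases, and in 42 of 50 without UK replicate 5. The 50 ratios share FASN and the same libraries, so they are not separate cases. How often other genes differ in their ratio to FASN was not computed, so these counts have no background beside them. In TGFb against FB, FADS2 rose relative to FASN by 0.90 ± 0.104. ACACA fell relative to FASN by 0.58 ± 0.124, ACLY by 0.83 ± 0.113, ACSS2 by 1.15 ± 0.132 and ELOVL6 by 1.65 ± 0.136 (exact permutation test, BH-adjusted p = 0.011 for each of the 5). FADS2 was the 1 gene of the 5 whose ratio to FASN was higher in TGFb.

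In Trog against TGFb the ratios to FASN went up for ACACA (1.15 ± 0.104), ACLY (0.75 ± 0.0857) and ACSS2 (0.61 ± 0.125) and down for ELOVL6 (-0.82 ± 0.166) and FADS2 (-0.61 ± 0.0578), each at an adjusted p of 0.011 by the exact permutation test. In TrogGW against TGFb, ACSS2 instead fell relative to FASN, by 0.41 ± 0.127 (exact permutation test, BH-adjusted p = 0.0209), and ELOVL6 stood at 0.22 ± 0.122 (exact permutation test, BH-adjusted p = 0.108). In TrogGW against Trog the ratio of ELOVL6 rose by 1.04 ± 0.190, while those of FADS2 and ACSS2 fell by 1.07 ± 0.0885 and 1.02 ± 0.111 (exact permutation test, BH-adjusted p = 0.011 for each). ACACA at -0.074 ± 0.113 and ACLY at 0.16 ± 0.0799 did not pass (exact permutation test, BH-adjusted p = 0.559 and 0.0831). In UK against Trog, FADS2 did not pass, at 0.13 ± 0.111 (exact permutation test, BH-adjusted p = 0.3), whereas the other 4 ratios fell by 0.89 to 1.40. Without UK replicate 4, FADS2 over FASN passed at 0.22 (exact permutation test, BH-adjusted p = 0.0387).

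In UK against TGFb, ELOVL6 fell relative to FASN by 1.71 ± 0.206 and FADS2 by 0.48 ± 0.119 (exact permutation test, BH-adjusted p = 0.011 for each). ACLY at -0.57 ± 0.221 and ACSS2 at -0.54 ± 0.258 did not pass with UK replicate 5 (exact permutation test, BH-adjusted p = 0.0581 and 0.0756). Without it both passed, at -0.76 each (exact permutation test, BH-adjusted p = 0.0198). ACACA stood at -0.25 ± 0.227 with that library (exact permutation test, BH-adjusted p = 0.354) and at -0.039 without it (exact permutation test, BH-adjusted p = 0.651).

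**Figure D3:**
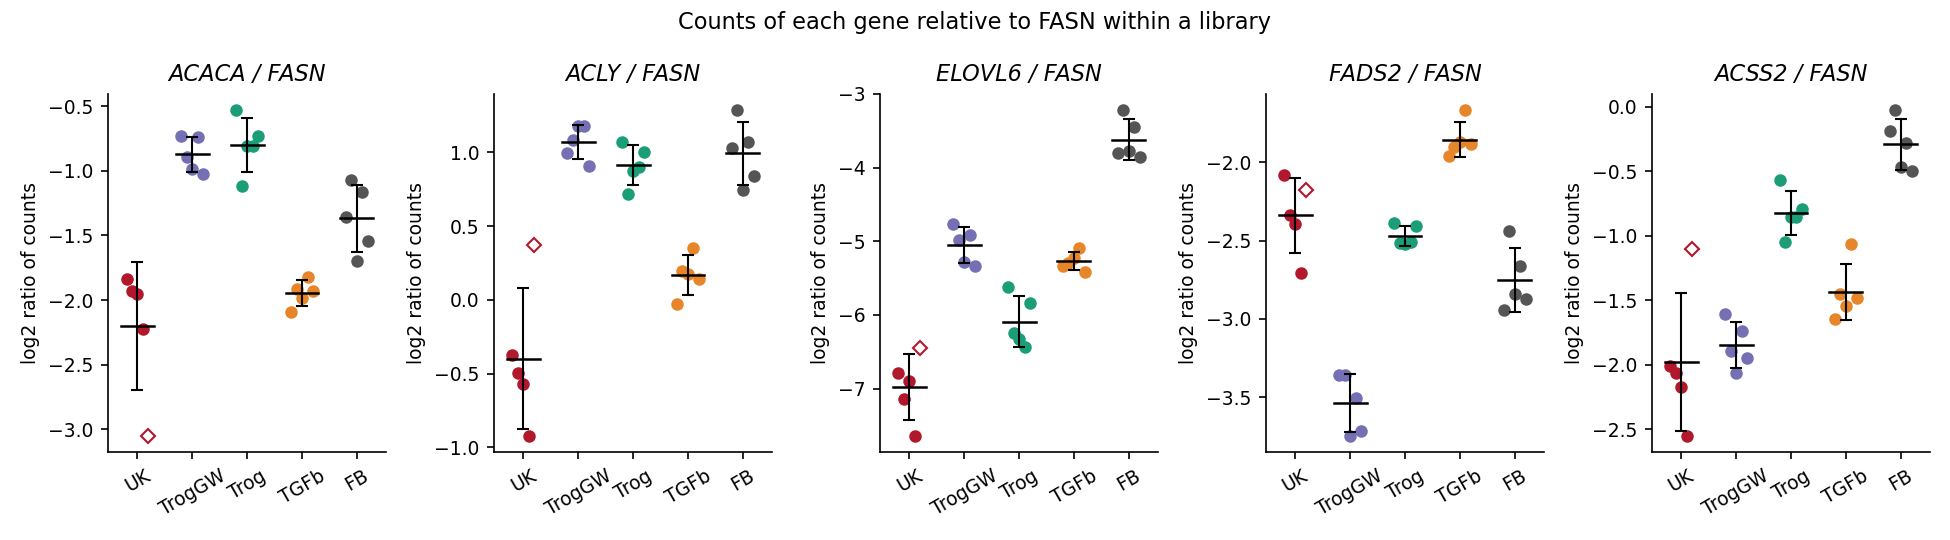
Log2 ratio of the counts of 5 genes to those of FASN in the same library (vertical axis), with 1 point per library, the mean as a line and the SD as a bar (n = 5), and UK replicate 5 as an open diamond. ELOVL6 over FASN is highest in FB, and FADS2 over FASN is lowest in TrogGW.

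UK replicate 5 was the lowest UK library for all 6 genes. Its level was 16.7% of the mean of the other 4 UK libraries for ACACA, 34.5% for FASN, 40.03% for FADS2, 55.0% for ELOVL6, 67.9% for ACLY and 74.5% for ACSS2. This library lay below the other 4 in 45.6% of all tested genes and above them in 44.2%. Even so, its FASN, ACLY, FADS2 and ACSS2 levels were above every Trog, TrogGW and FB library, while its ACACA level was below all of them.

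Other genes of the pathway were read from lists. As a background to all list counts below, 38.2% of all tested genes changed in TGFb against FB (18% rose). In Trog against TGFb 62.6% changed (29.7% fell), and in UK against TGFb 50.5% (22.5% fell). The changed share was 43.2% in TrogGW against Trog. Whether a list exceeds these shares was not tested. Of 7 other tested genes of desaturation, 3 rose and 1 fell in TGFb against FB, with a median of 0.44. SCD, the stearoyl-CoA desaturase that makes oleic acid, averaged 979 ± 53.9 CPM in TGFb and 171 ± 19.1 in FB, a rise of 2.52 ± 0.288 (edgeR BH-adjusted p = 1.81e-07). FADS1, the delta-5 desaturase that acts after FADS2, rose by 1.22 ± 0.361 (edgeR BH-adjusted p = 0.00931), but library totals alone ended that call (0.85, edgeR BH-adjusted p = 0.0616). In Trog against TGFb, 5 fell and 1 rose, with a median of -1.49. SCD fell by 2.29 ± 0.286 and FADS3, a desaturase paralog, by 1.90 ± 0.104 (edgeR BH-adjusted p = 2.3e-07 and 1.35e-13), while FADS6, of the same family, rose by 3.02 ± 0.163 (edgeR BH-adjusted p = 1.06e-13). In UK against TGFb, 2 rose and 2 fell, and SCD fell by 1.33 ± 0.277 (edgeR BH-adjusted p = 0.000332). Unlike FADS2, FADS3 rose in TrogGW against Trog, by 1.001 ± 0.101 (edgeR BH-adjusted p = 2.64e-08), while SCD stood at -0.69 ± 0.274 (edgeR BH-adjusted p = 0.0458), and at -0.52 with library totals alone (edgeR BH-adjusted p = 0.155).

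Of 15 other tested genes of chain synthesis and elongation, 4 rose and 2 fell in TGFb against FB, with a median of 0.045. ELOVL5, an elongase of polyunsaturated chains, rose by 1.75 ± 0.242 and ACACB, the mitochondrial acetyl-CoA carboxylase, by 1.41 ± 0.198 (edgeR BH-adjusted p = 2.78e-06 and 3.53e-06). In Trog against TGFb, 8 fell and 3 rose, with a median of -0.57. ELOVL5 fell by 1.97 ± 0.243, ACACB by 2.29 ± 0.206 and ELOVL1, an elongase of saturated chains, by 1.42 ± 0.0601 (edgeR BH-adjusted p = 1.86e-07, 9.95e-10 and 1.54e-15). HACD3, a dehydratase of the elongation cycle, rose by 0.53 ± 0.0704 (edgeR BH-adjusted p = 5.43e-07). In UK against TGFb, 5 rose and 5 fell, and the elongases ELOVL4, ELOVL5 and ELOVL1 fell by 3.005 ± 0.241, 1.68 ± 0.241 and 0.96 ± 0.0595 (edgeR BH-adjusted p = 3.47e-10, 3.08e-06 and 4.27e-12). In TrogGW against Trog, 3 fell and 1 rose, and TECR, the reductase that ends the cycle, fell by 0.77 ± 0.130 (edgeR BH-adjusted p = 3.36e-05).

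Of 11 tested genes that supply acetyl-CoA, citrate and NADPH, 2 rose and 1 fell in TGFb against FB, with a median of -0.028. PGD, an NADPH-yielding enzyme of the pentose phosphate pathway, rose by 0.42 ± 0.126 (edgeR BH-adjusted p = 0.00952), a call that library totals alone left at 0.049. In Trog against TGFb, 6 fell and 3 rose, with a median of -0.44. DLAT, a subunit of the pyruvate dehydrogenase complex, fell by 1.56 ± 0.108 (edgeR BH-adjusted p = 9.22e-12). ACSS3 and ACSS1, mitochondrial relatives of ACSS2, rose by 2.45 ± 0.164 and 0.80 ± 0.0780 (edgeR BH-adjusted p = 5.38e-12 and 4.21e-09), while ACSS2 itself fell. In UK against TGFb, 3 rose and 1 fell, DLAT falling by 0.86 ± 0.106 (edgeR BH-adjusted p = 3.69e-07). In TrogGW against Trog, 3 fell and 1 rose, and IDH1, a cytosolic source of NADPH, fell by 0.81 ± 0.0924 (edgeR BH-adjusted p = 1.76e-07).

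Among 14 tested regulators of lipid synthesis, 5 rose and 2 fell in TGFb against FB, with a median of 0.17. In Trog against TGFb 3 rose and 7 fell, and in UK against TGFb 4 rose and 3 fell. In TrogGW against Trog 2 rose and 5 fell. The list did not move together. Mean log2 CPM, centred over the groups, was 0.061 in TGFb and 0.77 in Trog for MLXIP. For MID1IP1 it was -0.60 and 0.59, and for NR1H2 -0.56 and 0.46. INSIG1, which holds SREBP precursors in the endoplasmic reticulum and is itself a known SREBP target, averaged 480.5 ± 284 CPM in UK, 52.2 ± 12.4 in TrogGW, 142 ± 12.5 in Trog, 369 ± 12.9 in TGFb and 71.9 ± 6.34 in FB. It rose by 2.36 ± 0.235 in TGFb against FB and fell by 1.37 ± 0.228 in Trog and 2.82 ± 0.240 in TrogGW against TGFb (edgeR BH-adjusted p = 2.04e-08, 1.35e-05 and 2.8e-10). SREBF1, which encodes the SREBP-1 factors, averaged 180.0 ± 57.3 CPM in UK, 77.7 ± 8.70 in TrogGW, 75.5 ± 4.63 in Trog, 131 ± 11.8 in TGFb and 85.2 ± 11.9 in FB. It rose by 0.63 ± 0.167 in TGFb against FB and fell by 0.80 ± 0.168 in Trog and 0.76 ± 0.168 in TrogGW against TGFb (edgeR BH-adjusted p = 0.00435, 0.000227 and 0.000328). Library totals alone ended these 3 calls, at 0.25, -0.11 and 0.10. SREBF2, which encodes SREBP-2, and INSIG1 fell in TrogGW against Trog by 1.09 ± 0.184 and 1.45 ± 0.229 (edgeR BH-adjusted p = 3.38e-05 and 1.53e-05), while SREBF1 stood at 0.041 ± 0.167 (edgeR BH-adjusted p = 0.873). MLXIPL and THRSP, a carbohydrate-responsive factor and a lipogenic regulator, had too few counts to be tested.

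Genes of cholesterol synthesis and uptake are known targets of the same factors. Of 17 tested, 15 rose in TGFb against FB, with a median of 1.07, where 18% of all tested genes rose. In Trog against TGFb 15 fell, and in TrogGW against TGFb all 17 fell, with medians of -2.38 and -2.703. Of all tested genes, 29.7% and 31.3% fell in these 2 comparisons. With library totals alone, 1 rose and 13 fell in TrogGW against TGFb, where 82.6% of all tested genes changed. In TrogGW against Trog 15 fell and 1 rose, with a median of -0.74, whereas of the 6 fatty acid genes 2 fell and 1 rose. DHCR7, an enzyme that completes cholesterol synthesis, rose by 1.57 ± 0.104 in TGFb against FB (edgeR BH-adjusted p = 1.99e-11). In UK against TGFb 9 fell and 1 rose, with a median of -0.64, and DHCR7 fell by 0.92 ± 0.102 (edgeR BH-adjusted p = 6.87e-08). The lists were chosen with earlier results of these data known, and whether they differ from the 6 genes was not tested.

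The counts of these lists depended on the scaling, since library totals alone shifted the median of all genes by -0.37 in TGFb against FB, 0.68 in Trog against TGFb and 0.23 in UK against TGFb. With library totals alone, 54.6%, 76.7% and 57.3% of all tested genes changed in these comparisons, and 45.6% in TrogGW against Trog. In TGFb against FB, 2 rose and 2 fell among the desaturation genes under that scaling, 2 rose and 6 fell in chain synthesis, 5 fell in supply, 3 rose and 6 fell among regulators and 12 rose and 1 fell in the cholesterol list. In Trog against TGFb, 1 rose and 4 fell in desaturation, 5 rose and 3 fell in chain synthesis, 6 rose and 1 fell in supply, 8 rose and 2 fell among regulators and 2 rose and 13 fell in the cholesterol list. In UK against TGFb, 2 rose and 1 fell in desaturation, 7 rose and 3 fell in chain synthesis, 7 rose and 1 fell in supply, 8 rose and 2 fell among regulators and 3 rose and 9 fell in the cholesterol list. Without UK replicate 5 and with the TMM scaling used elsewhere, 2 rose and 5 fell in UK against TGFb in desaturation, 3 rose and 5 fell in chain synthesis, 3 rose and 5 fell in supply, 4 rose and 4 fell among regulators and 1 rose and 11 fell in the cholesterol list. Of all tested genes, 70.9% changed there. In TrogGW against Trog with library totals alone, 1 rose and 1 fell in desaturation, 3 rose and 1 fell in chain synthesis (1 and 3 with TMM), 1 rose and 3 fell in supply, 2 rose and 5 fell among regulators and 1 rose and 12 fell in the cholesterol list. The cholesterol list kept its predominant direction in the comparisons of TGFb with FB and of Trog and UK with TGFb under both scalings.

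**Figure D4:**
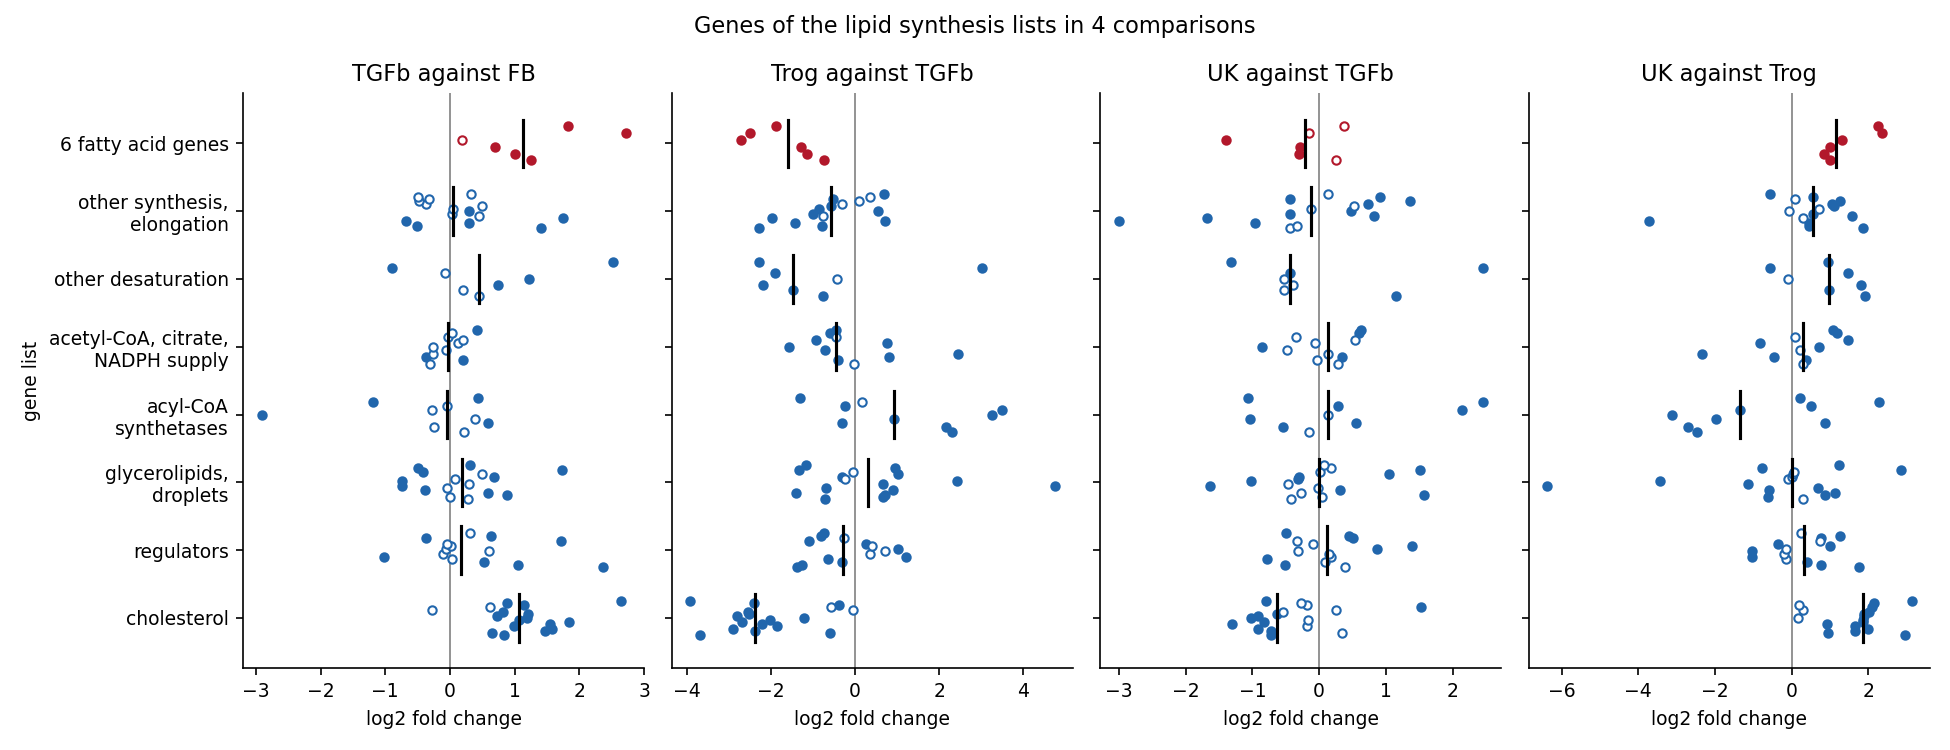
Log2 fold change (horizontal axis) of each tested gene of 8 lists in 4 comparisons, filled where edgeR's adjusted p was under 0.05 and open otherwise, with the list median as a vertical bar. The median of the cholesterol list lies above 0 in TGFb against FB and below 0 in Trog against TGFb and UK against TGFb, and that of the 6 genes is -1.58 in Trog against TGFb.

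The profile of each gene over the 5 groups was set beside those of all other tested genes. Likeness was the root mean square difference of group means of log2 CPM, each profile centred on its own mean, over 5 groups and 25 libraries. This is a description, with no test. The nearest to ACSS2 was GGT7, a gamma-glutamyltransferase family gene that is its next neighbour in the RefSeq gene table (0.0680 with all libraries and 0.0490 without UK replicate 5). GGT7 averaged 68.5 ± 2.34 CPM in UK, 15.2 ± 4.06 in TrogGW, 32.5 ± 3.27 in Trog, 80.3 ± 6.08 in TGFb and 47.6 ± 3.02 in FB, the same order as ACSS2. BSG (0.0753), a chaperone of monocarboxylate transporters, and PPIB (0.0923), a cyclophilin of the endoplasmic reticulum, followed, but both rested on UK replicate 5. Without it BSG was at 0.202, rank 24, and PPIB at 0.237, rank 46, while FKBP10 (0.0633) and ATP2B3 (0.101) took their places.

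For FASN the nearest were SLC4A4 (0.141), a sodium bicarbonate cotransporter, NOX4 (0.190), an NADPH oxidase, and RNF145 (0.192), a sterol-responsive ubiquitin ligase that became the nearest without UK replicate 5 (0.177). Without that library SLC4A4 was at 0.284, rank 8, and NOX4 at 0.278, rank 6. For ACACA they were FZD6 (0.1005), COL4A3 (0.113) and SLC25A4 (0.126), and for ACLY they were SYNGR3 (0.0407), LTBP3 (0.0668) and BRD8 (0.106). For ACACA without that library, FZD6 was at 0.193, rank 8, and SLC25A4 at 0.458, rank 607, and the nearest was NAP1L5 (0.0918), with COL4A3 still second. For ELOVL6 they were NEFL (0.105), PRRT3 (0.156) and TUBB6 (0.187). For FADS2 they were AGER (0.232), PROS1 (0.276) and NAALAD2 (0.285). Some of these nearest genes had few counts, and the prior count of 2 then weighs on log2 CPM. Over the 5 Trog libraries NEFL summed to 4 counts, PRRT3 to 23 and SYNGR3 to 101. NAALAD2 summed to 15 counts over the 5 TrogGW libraries. Leaving out UK replicate 5 put TUBB6 at 0.279, rank 18, for ELOVL6, and AGER at 0.357, rank 8, and NAALAD2 at 0.404, rank 11, for FADS2. The nearest to ELOVL6 was then KIAA0895L (0.0648), ahead of NEFL (0.0996). GAMT (0.296) was then the nearest to FADS2, ahead of PROS1 (0.301) and CLGN (0.311). None of the 6 genes was among the 3 nearest of another. The closest pair was ACACA with ACLY at 0.231, where ACLY ranked 43 of 10698 for ACACA (0.331 and rank 137 without UK replicate 5), and the farthest was FADS2 with ELOVL6 at 1.40.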

How the data were processed

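The authors deposited raw read counts per gene symbol for each library, per the file headers and values. Per the labels' protocols, polyadenylated RNA was selected and a stranded kit was used. Salmon 1.5.2, featureCounts, Subread 2.0.1, STAR 2.7.9a and fastp 0.23.1 are named, with no roles, in the submitters' processing notes. The genome build, annotation and strand setting are not given in the sources used here. Gene neighbours came from the RefSeq table of another stated assembly, so no coordinates are given.

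From the counts, edgeR 4.0.16 (R 4.3.3) was run with TMM scaling, filterByExpr (minimum count 10, minimum total 15), 1 mean per group over all 25 libraries and the quasi-likelihood test. P-values were BH-adjusted over 10699 genes, or 10798 without UK replicate 5, and called under 0.05. The SE is the size of the log2 fold change divided by the square root of the F statistic, and 95% intervals are built from it. Log2 CPM used a prior count of 2. Ratios to FASN used scipy 1.17.1. Library totals were 14781627 to 25210639 counts. The alternatives were RLE scaling, library totals alone, DESeq2 1.42.0, limma 3.58.1 voom, no filter, a minimum count of 50, a fit of only the 2 groups, replicate number as a block, and leaving out each library. The block and library totals without UK replicate 5, and both settings for the lists, were added after seeing the data. The code was tested on simulated data. The 6 genes and the lists were chosen with earlier results of these data known. Named beyond the 6 genes are, per list and comparison, up to 4 called genes with the lowest adjusted p, any regulator, and the 3 nearest profiles of each gene.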

Additional observations from a re-analysis of the deposited data

Results flagged for a closer look

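Within groups of 5 libraries, a library was singled out where its gap to the nearest other library exceeded 0.71 of the group's range, a limit that chance passes in about 1 of 20 groups. Of the 30 sets of 6 genes in 5 groups, 3 passed it. ACACA was 58.55 CPM in UK replicate 5, against 315.9 to 374.5 CPM in the other 4 UK libraries (gap 0.814 of the range). FADS2 was 107.2 CPM in UK replicate 5, against 238.2 to 289.4 CPM in the others (0.719). FADS2 was 281.7 CPM in TGFb replicate 1, against 253.2 to 259.1 CPM in the other 4 TGFb libraries (0.794).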

How the results depend on the processing

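All 60 results, 6 genes in 10 comparisons, kept their call and direction with limma voom, without a filter, with a minimum count of 50 and with the replicate block in the fit of 25 libraries. RLE scaling and DESeq2 changed only FASN in TrogGW against Trog, to -0.0098 each. The labels do not say whether the replicate numbers pair the libraries. Same-numbered libraries deviated together with r of -0.187 to 0.328, above 0.1 in 6 of 50 pairs, which does not settle it.

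Without UK replicate 5, 5 genes were called in UK against TGFb and 5 in Trog against FB, in place of 3 and 2. The shares of all genes called were then 70.9% and 81.4%, in place of 50.5% and 63.9%. The block without that library also called 5 in each, and FADS2 in UK against TGFb was 0.036 there. Fits of only the 2 groups called 1 in UK against TGFb and 5 in Trog against FB, where 32.4% and 83.6% of all genes tested were called. Leaving out each library gave 3 to 5 called genes in UK against TGFb, 2 to 5 in Trog against FB, 3 to 4 in TrogGW against Trog, 5 to 6 in UK against TrogGW and 3 to 4 in TrogGW against FB. The highest counts were those without UK replicate 5, where 70.9%, 81.4%, 71.6%, 81.5% and 85.8% of all genes were called. Over these fits FADS2 in UK against TGFb ranged from -0.23 to 0.039, FASN from -0.035 to 0.074 in TrogGW against Trog and from -0.13 to 0.0084 in TrogGW against FB, and ACLY from -0.0090 to 0.073 in TrogGW against FB. The ratio of ACSS2 to FASN in UK against TrogGW ranged from -0.35 to 0.010, and 38 to 42 ratios passed. With the block, the exact sign-flip permutation test of the ratios cannot go below p = 0.0625, so 0 of 50 ratios could be called.

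Library totals alone called 3 genes in UK against TrogGW and 4 in Trog against FB, beside 76.6% and 67.3% of all genes. Directions turned for ELOVL6 in TGFb against FB (-0.20), ACACA in TrogGW against TGFb (0.051) and TrogGW against Trog (0.11), FADS2 in UK against TGFb (0.11), ELOVL6 in UK against TrogGW (-0.35), FASN (0.25) and ACLY (0.17) in Trog against FB, and FASN in TrogGW against FB (0.43). Without UK replicate 5 this scaling called 6 genes in Trog against FB and 6 in TrogGW against FB, beside 82.6% and 86.9% of all genes. It then gave ACLY 0.081, FADS2 0.32 and ACSS2 0.075 in UK against TGFb and ELOVL6 -0.20 in UK against TrogGW. The other turned values stayed as given, at -0.20 for ELOVL6 in TGFb against FB, 0.050 and 0.11 for ACACA, 0.25 and 0.43 for FASN and 0.17 for ACLY. The cause was not tested.

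Over all genes, 4089 were called in TGFb against FB and 7124 without UK replicate 5, and 4620 and 7735 in TrogGW against Trog. A fit of only 2 groups called 3210 in UK against TGFb, in place of 5408. Of the called genes, 47.2% were higher in TGFb against FB, or 13.9% with library totals alone. These shares were 52.5% and 83.2% in Trog against TGFb, 54.9% and 84.9% in TrogGW against TGFb, 55.4% and 74.2% in UK against TGFb, 52.8% and 69.9% in TrogGW against Trog, 53.8% and 25.1% in UK against Trog, 48.4% and 20.4% in UK against TrogGW, 50.7% and 68.2% in Trog against FB, 51.8% and 73.9% in TrogGW against FB, and 53.1% and 41.9% in UK against FB.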

Other observations

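Of 16 tested genes of glycerolipid synthesis and lipid droplets, 8 rose and 6 fell in Trog against TGFb, and 8 rose and 8 fell in TrogGW against TGFb. Of all tested genes, 62.6% and 69.4% changed in these comparisons. DGAT2, which completes triglyceride synthesis, averaged 0.767 ± 0.258 CPM in UK, 48.7 ± 3.69 in TrogGW, 65.0 ± 6.25 in Trog, 2.42 ± 0.425 in TGFb and 4.04 ± 0.310 in FB (SD, n = 5). It rose by 4.74 ± 0.146 in Trog against TGFb and fell by 6.38 ± 0.164 in UK against Trog (edgeR BH-adjusted p = 9.4e-18 and 8.58e-19). GPAT3, which starts glycerolipid assembly, averaged 20.7 ± 1.57 CPM in UK, 179.6 ± 6.57 in TrogGW, 224 ± 11.9 in Trog, 42.1 ± 2.31 in TGFb and 70.5 ± 3.24 in FB. It rose by 2.41 ± 0.0673 in Trog against TGFb (edgeR BH-adjusted p = 3.54e-18). With library totals alone, 11 of the list rose and 2 fell in Trog against TGFb, and 10 rose and 3 fell in TrogGW against TGFb. Under that scaling 76.7% and 82.6% of all tested genes changed.

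Of 9 tested acyl-CoA synthetases, which activate fatty acids for use, 5 rose and 3 fell in Trog against TGFb, or 8 and 1 with library totals alone. The shares of all tested genes changed were 62.6% and, with library totals alone, 76.7%. ACSL5 averaged 1.39 ± 0.693 CPM in UK, 3.95 ± 0.354 in TrogGW, 11.6 ± 1.44 in Trog, 1.21 ± 0.175 in TGFb and 9.15 ± 0.747 in FB. It fell by 2.91 ± 0.191 in TGFb against FB and rose by 3.25 ± 0.190 in Trog against TGFb (edgeR BH-adjusted p = 1.75e-11 and 4.47e-13). In TrogGW against Trog it fell by 1.55 ± 0.163 (edgeR BH-adjusted p = 4.4e-08). ACSL1 averaged 50.6 ± 20.7 CPM in UK, 213 ± 8.78 in TrogGW, 330.4 ± 12.4 in Trog, 73.6 ± 2.54 in TGFb and 86.9 ± 2.16 in FB, and rose by 2.17 ± 0.223 in Trog against TGFb (edgeR BH-adjusted p = 1.02e-08). SLC27A3, a fatty acid transport family gene, rose by 2.45 ± 0.187 in UK against TGFb (edgeR BH-adjusted p = 1.42e-10), at 24.8 ± 10.3 CPM in UK and 4.51 ± 0.364 in TGFb. The adipocyte marker sums given above were highest in Trog as well, mostly through FABP4, and their part in these values was not tested.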
